A study of Homo sapiens with 2 samples.

Results

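The cyclins and the cyclin-dependent kinases (CDKs) CCND1, CCND3, CCNE1, CCNE2, CCNA2, CCNB1, CCNB2, CDK1, CDK2 and CDK4 are described here in LNCaP_FGC and LNCaP_C4-2B cells. They were taken by symbol, and all 10 were found once in each matrix of 36601 genes. LNCaP_FGC is an established human prostate carcinoma line that expresses the androgen receptor, and LNCaP_C4-2B is a castration-resistant strain obtained from it by passage in mice. Cells of each line were grown in RPMI1640 with 10% fetal bovine serum and 1% antibiotic, without treatment, and 1 single-cell RNA-Seq library per line was read with 10x Genomics 3′ v3.1 chemistry. LNCaP_FGC was never put through clonal selection. Each library comes from 1 culture.

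Cyclins are regulatory subunits that appear and vanish in order through the cell cycle, and each activates the kinases it binds. D-type cyclins act with CDK4 in G1, where they phosphorylate the retinoblastoma protein and release E2F factors. E-type cyclins then act with CDK2 at the start of S phase, cyclin A with CDK2 and CDK1 through S and G2, and B-type cyclins with CDK1 at mitosis. Transcription of the late genes is held down in quiescent and G1 cells through a short promoter element, the CHR, bound by the MuvB complex, and is activated through CCAAT boxes bound by NF-Y, whereas early genes carry E2F sites. In prostate carcinoma cells the androgen receptor feeds into the same machinery at the G1 to S step.

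Promoter stretches of 4 members are printed because they show letters of the CHR or of CCAAT boxes. These 4 stood at least 1.5-fold higher in G2M cells than in other cells of both libraries. Of CDK1 only the 30 bases that end with the TTTGAA nearest its start site are given. They hold no CCAAT and lie within the annotated gene. The sequences are from RefSeq on GRCh38.p14, run 5′ to 3′ on the strand of the gene, and have CCAAT on either strand and the CHR letters TTTGAA, or its variants CTTGAA and TTTAAA, in capitals. CCNA2 is given at chr4:121823884-121824033 on the minus strand, CCNB1 at chr5:69167000-69167134, CCNB2 at chr15:59104996-59105125 and CDK1 at chr10:60778441-60778470, all 3 on the plus strand.
CCNA2: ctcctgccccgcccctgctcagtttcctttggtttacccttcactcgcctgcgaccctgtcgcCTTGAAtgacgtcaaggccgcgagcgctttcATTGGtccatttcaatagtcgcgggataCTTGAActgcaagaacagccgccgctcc
CCNB1: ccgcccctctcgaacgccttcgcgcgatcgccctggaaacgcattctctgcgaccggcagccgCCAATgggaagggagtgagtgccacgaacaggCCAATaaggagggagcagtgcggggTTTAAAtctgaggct
CCNB2: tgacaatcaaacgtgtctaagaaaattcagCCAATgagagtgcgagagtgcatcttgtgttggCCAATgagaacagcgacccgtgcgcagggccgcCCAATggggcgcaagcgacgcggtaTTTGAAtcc
CDK1: tccggggccctttagcgcggtgagTTTGAA
Motifs were searched in the 150 bases before each start site, on both strands, and positions count back from the start site, the last base before it being -1. CCNB2 held CCAAT at -120, -87 and -54 and TTTGAA at -29. CCNA2 held CTTGAA at -87 and at -28, with CCAAT on the other strand at -56. CCNB1 held CCAAT at -87 and -55 and TTTAAA at -30, letters that also read as an AT-rich TATA-like stretch. CDK1, at its start site at 60778478, held TTTGAA at -69 and -13, CCAAT on the other strand at -78 and -46, and an E2F match at -128, the only one among the members with a promoter in the table. Before its other start site, at 60778331, CDK1 held CCAAT at -150 and TTTAAA at -131.

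Over all 35116 promoters of the same table, 7.33% held TTTGAA in this window, 5.31% CTTGAA and 6.24% TTTAAA. The further variant TTCGAA was in 0.604% and in no member. CCAAT was in 23.5%, at least 2 copies of it in 5.97%, and an E2F form (TTTNNCGC, each N being G or C) in 1.80%. Of the 10 members, 7 had a promoter in the table. CCND1, CCNE2 and CDK2 had none. Of the other 3 genes with an entry, CCND3 held 1 CCAAT before 2 of its 3 start sites, CCNE1 held TTTAAA at -28, and CDK4 held none of these letters. No motifs overlapped each other in the printed stretches, and a match describes letters only.

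The libraries held 1850 cells each, 35150013 UMIs in LNCaP_FGC and 35149989 in LNCaP_C4-2B, after the authors had thinned both to the same mean of 19000 UMIs per cell. A UMI marks 1 captured transcript end whatever the transcript's length, and levels are given as CPM, the UMIs of a gene scaled to the same total in both libraries, so that 1 UMI is worth 0.0284 CPM. The libraries shared 0 cell barcodes. All 8 luminal prostate markers were detected in both, summing to 2743 and 5108 CPM, while 12 markers of other cell types summed to 11.2 and 4.52 CPM. In LNCaP_FGC 6 of these 12 and in LNCaP_C4-2B 8 of 12 had no UMI, among them PTPRC, CD3E, COL1A2, DCN, KRT5 and TP63 in both. Mitochondrial transcripts took 6.27% and 8.35% of UMIs and ribosomal protein transcripts 23.2% and 28.2%. Each line has its own library, so strain cannot be told apart from library or from any batch that differs with it. With 1 library per line no test was run. Intervals are exact 95% intervals (Poisson for a level, conditional binomial for a ratio, Clopper-Pearson for a share of cells) and cover counting error only.

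Between the lines, the E-type cyclins and CDK1 were lower and CCNB2 and CCND1 higher in LNCaP_C4-2B, against a median gene that was itself lower by 0.49 on the log2 scale. With ribosomal protein and mitochondrial genes left out of the totals, the median gene was at -0.33. Median genes detected per cell were 4909.5 in LNCaP_FGC and 4133 in LNCaP_C4-2B, and the cause of the shift was not tested. A member was therefore counted as above or below only when it departed from the median gene's ratio by 1.5-fold or more. On this rule 2 of the 10 members were above and 3 below. Among all 17897 genes with at least 10 UMIs, 26.0% were above and 26.4% below, so the numbers of members called were near those of any genes. The median log2 ratio of the members was -0.40, which is 0.09 over the median gene.

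CCND1, the D-type cyclin that answers to growth signals in most epithelial cells, lies on chromosome 11 (69641156 to 69654474). It stood at 253 CPM in LNCaP_FGC and 313 CPM in LNCaP_C4-2B, and its log2 ratio was 0.80 over that of the median gene. CCND3 (chromosome 6, 41934934 to 42050357), its sparser relative, had 522 and 468 UMIs, or 14.9 and 13.3 CPM. The interval of its ratio, 0.790 to 1.02, included equal CPM in both lines. Its log2 ratio lay 0.33 above that of the median gene, within the 1.5-fold limit. One UMI of CCND3 was read for every 17.0 of CCND1 in LNCaP_FGC and every 23.5 in LNCaP_C4-2B. CDK4 (chromosome 12, 57747727 to 57756013), the kinase of the D-type cyclins, was at 142 and 107 CPM, 0.08 above the median gene. The ratio of CCND1 to CDK4 UMIs was therefore 1.78 (95% interval 1.72 to 1.85) in LNCaP_FGC and 2.94 (2.83 to 3.05) in LNCaP_C4-2B.

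Both E-type cyclins were lower in LNCaP_C4-2B, and CCNE2 had the widest gap of the members. CCNE1 (chromosome 19, 29811991 to 29824312) fell from 22.2 CPM (20.6 to 23.8) in LNCaP_FGC to 8.19 CPM (7.27 to 9.20) in LNCaP_C4-2B, a level 2.70-fold lower (2.36 to 3.11). CCNE2, on chromosome 8, was at 76.6 CPM (73.7 to 79.5) and 14.2 CPM (13.0 to 15.5), 5.38-fold lower (4.89 to 5.94). CCNE2 was the more abundant of the pair in both lines, with 3.46 UMIs for each CCNE1 UMI in LNCaP_FGC and 1.74 in LNCaP_C4-2B. Their kinase CDK2 (chromosome 12, 55966781 to 55972789) was at 28.9 and 20.6 CPM, which placed it at the median gene.

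Of the mitotic members, the 2 B-type cyclins went apart. CCNB1 (chromosome 5, 69167135 to 69178245), whose product triggers entry into mitosis, was at 245 CPM (240 to 250) in LNCaP_FGC and 187 CPM (183 to 192) in LNCaP_C4-2B, 0.10 above the median gene. CCNB2 (chromosome 15, 59105126 to 59125045), its Golgi-associated relative, was at 46.7 CPM (44.5 to 49.0) and 80.5 CPM (77.5 to 83.5), 1.72-fold higher (1.62 to 1.83) and 1.27 above the median gene. The UMIs of CCNB1 for each UMI of CCNB2 thus went from 5.25 (4.98 to 5.53) to 2.33 (2.22 to 2.43). CCNA2 (chromosome 4, 121816444 to 121823883), the cyclin of S and G2, was at 47.6 and 39.9 CPM, 0.23 above the median gene. CDK1 (chromosome 10, 60778331 to 60794852) was the highest member in LNCaP_FGC at 445 CPM and the third in LNCaP_C4-2B at 151 CPM and its log2 ratio was -1.08 relative to the median gene. With CCNB1 less changed than its kinase, CCNB1 UMIs per CDK1 UMI were 0.551 (0.536 to 0.566) in LNCaP_FGC and 1.24 (1.20 to 1.29) in LNCaP_C4-2B.

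Ordered by level, LNCaP_FGC ran CDK1, CCND1, CCNB1, CDK4, CCNE2, CCNA2, CCNB2, CDK2, CCNE1 and CCND3, and the intervals overlapped only for the neighbours CCND1 and CCNB1 and for CCNA2 and CCNB2. LNCaP_C4-2B ran CCND1, CCNB1, CDK1, CDK4, CCNB2, CCNA2, CDK2, CCNE2, CCND3 and CCNE1, where only CCNE2 and CCND3 overlapped. CCNE2 moved from the fifth place to the eighth and CCNB2 from the seventh to the fifth. A coding gene overlaps CCND1, CCNE2, CCNA2, CDK2 and CDK4 on the opposite strand, and the sources used here do not say whether the counting used strand.

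**Figure D1:**
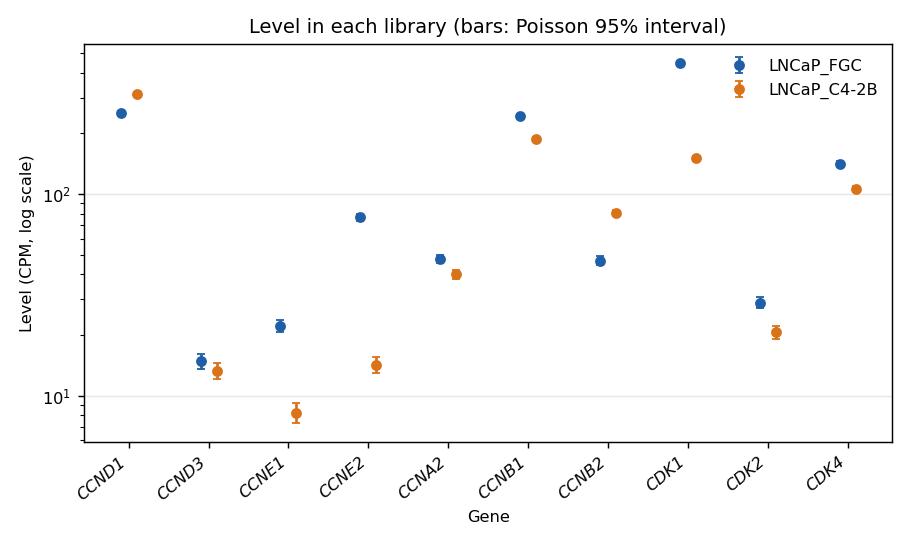
Level of each member in CPM (log axis) in the LNCaP_FGC and LNCaP_C4-2B libraries, with exact Poisson 95% intervals as bars. The widest gap is that of CCNE2, at 76.6 against 14.2 CPM, and on this scale CCND1 and CCNB2 are the only members higher in LNCaP_C4-2B.

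Cell cycle phases were called in each library alone from 41 S and 48 G2M genes that include no member. In LNCaP_FGC 802 cells were called G1, 455 S and 593 G2M, and in LNCaP_C4-2B 906, 384 and 560. The mitotic cyclins and CDK1 were highest in G2M cells of both lines apart from CDK1 in LNCaP_C4-2B, E-type cyclins and CDK2 were highest in S, and CCND1 was highest in G1. In G2M, 4 of 10 members were at least 1.5-fold higher than in the other phases pooled, in LNCaP_FGC against 9.13% of 16522 genes and in LNCaP_C4-2B against 9.35% of 15325 genes. These were CCNA2, CCNB1, CCNB2 and CDK1 in both. In S, 3 members passed in LNCaP_FGC (CCNE1, CCNE2 and CDK2), where 7.98% of genes did, and 6 in LNCaP_C4-2B (these, CCND3, CDK1 and CDK4), where 8.44% did. CCND3, CDK1 and CDK4 were also higher in S of LNCaP_FGC, at 1.49-fold (1.24 to 1.80), 1.41-fold and 1.39-fold, but under the limit. In LNCaP_C4-2B they were at 1.99-, 2.25- and 1.59-fold. In G1 none of the members was 1.5-fold higher, beside 10.1% of genes in LNCaP_FGC and 9.98% in LNCaP_C4-2B. Depth moved with phase, since the median UMIs per cell were 17532, 19472 and 18777 in G1, S and G2M of LNCaP_FGC and 15823, 20944.5 and 18274 in LNCaP_C4-2B. The part of depth in these levels was not tested.

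CCNE2 had the sharpest S phase peak of the members. It stood at 18.2 CPM in G1, 202 in S and 54.6 in G2M of LNCaP_FGC, and at 2.34, 47.7 and 5.85 CPM in LNCaP_C4-2B. Relative to the other phases, S was 5.91-fold higher (5.45 to 6.41) in LNCaP_FGC, and in LNCaP_C4-2B 12.4-fold (9.97 to 15.6). CCNE1 was at 16.8, 42.5 and 13.4 CPM in LNCaP_FGC, a peak 2.78-fold over the other phases (2.41 to 3.21), and at 9.30, 11.2 and 4.54 CPM in LNCaP_C4-2B, where S was only 1.54-fold over the others (1.19 to 1.98). The G1 level of CCNE1 was thus close to its S level in LNCaP_C4-2B.

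CDK1 differed in shape as well as in level. In LNCaP_FGC it went from 46.0 CPM in G1 to 568 in S and 858 in G2M, and in LNCaP_C4-2B from 31.9 to 261 and 229. Relative to the other phases, G2M was 3.54-fold higher (3.42 to 3.66) in LNCaP_FGC, and in LNCaP_C4-2B 2.04-fold (1.93 to 2.15). CCNB1 was at 66.2, 148 and 547 CPM in G1, S and G2M of LNCaP_FGC and at 64.4, 56.4 and 447 CPM in LNCaP_C4-2B. In S phase of LNCaP_C4-2B it was therefore no higher than in G1. CCNB2 was at 10.9, 33.1 and 103 CPM in LNCaP_FGC and 33.8, 50.5 and 165 CPM in LNCaP_C4-2B. CCNA2 rose through both cycles, with 3.47, 42.6 and 108 CPM in LNCaP_FGC and 5.40, 37.8 and 87.9 CPM in LNCaP_C4-2B.

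Set phase by phase, the gap between the lines was uneven for several members, while the median gene stayed at -0.46, -0.44 and -0.43 on the log2 scale in G1, S and G2M. CDK1 was 1.44-fold lower in LNCaP_C4-2B in G1 (1.28 to 1.62), 2.18-fold lower in S (2.07 to 2.29) and 3.74-fold lower in G2M (3.58 to 3.90). Relative to the median gene of each phase its log2 ratio was -0.06, -0.68 and -1.47, so in G1 it stood near the median gene. CCNB1 had a ratio of 0.974 in G1 (0.890 to 1.06) and 0.817 in G2M (0.788 to 0.848), but was 2.63-fold lower in S (2.37 to 2.93). CCNB2 was 3.11-fold higher in G1 (2.60 to 3.74), 1.52-fold in S (1.31 to 1.78) and 1.61-fold in G2M (1.49 to 1.73). CCNE1 was 1.80-fold lower in G1 (1.46 to 2.23) and 3.81-fold lower in S (3.03 to 4.83). Its log2 ratio was -0.39 and -1.49 relative to the median gene, within the 1.5-fold limit in G1. CCNE2 was 7.78-, 4.24- and 9.32-fold lower in G1, S and G2M. The ratios of CCND3, CDK2 and CDK4 ran from 0.652 to 1.09 over the phases. Phases were called within each library, so the same name can cover a different stretch of the cycle in each line.

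**Figure D2:**
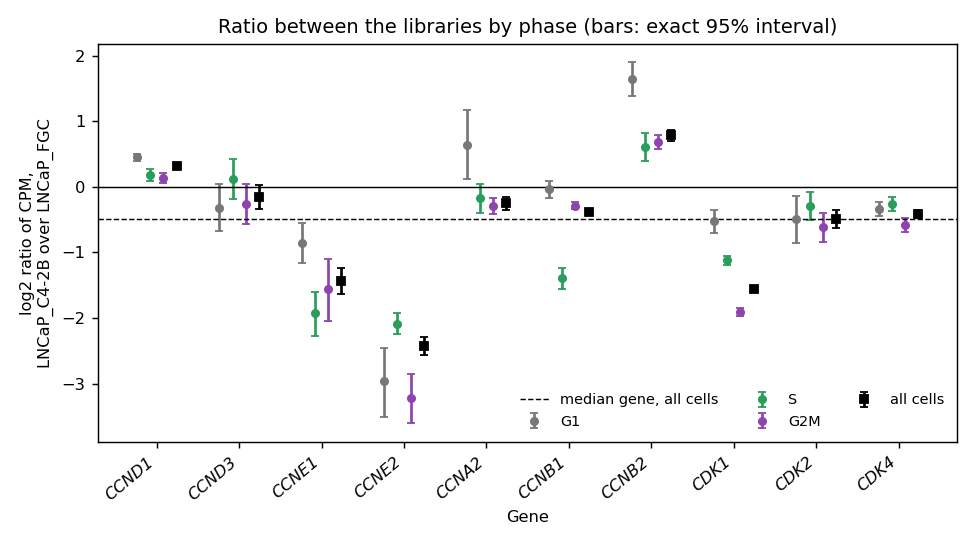
The log2 of the LNCaP_C4-2B level divided by the LNCaP_FGC level (both in CPM) for each member in G1, S and G2M cells and in all cells, with exact 95% intervals as bars. The dashed line marks the median gene over all cells at -0.49, and CDK1 goes further down from G1 to S to G2M while CCNE2 is lowest in G1 and G2M.

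Cells of each library were then ordered by proliferation, measured as the share of their UMIs in the same 89 S and G2M genes, and divided into 10 groups of 185 cells. The median share rose from 16.4 to 179 UMIs per 10000 in LNCaP_FGC and from 13.4 to 146 in LNCaP_C4-2B. Between the lowest and the highest group, 6 members were at least 2-fold higher in LNCaP_FGC (CCNE2, CCNA2, CCNB1, CCNB2, CDK1 and CDK2), where 12.3% of 13039 genes were. In LNCaP_C4-2B these 6 and CCND3 were, against 14.6% of 12360 genes, although the interval of CCNE2 ran from 0.945 to 5.54. Its ratio of 2.16 there was 1.74 when cells were ordered by cell cycle progression genes and 1.64 when ordered by thinned UMIs. It was 1.94 without ribosomal protein and mitochondrial genes, but 6.76 with 5 groups of cells. The 3.32 of CCND3 was 1.93 in the order by cell cycle progression genes and 2.90 to 3.20 in the other alternatives. The lowest group in LNCaP_C4-2B also had fewer UMIs per cell, with a median of 14222 against 21638 in the highest, and in LNCaP_FGC these were 17938 and 19187. The ribosomal protein share went from 25.0% to 19.5% in LNCaP_FGC and from 31.3% to 25.2% in LNCaP_C4-2B.

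The late members ended far above their start, and CDK1 alone rose at every step in both lines. CDK1 went from 12.4 CPM in the lowest group to 1433 in the highest in LNCaP_FGC, 115-fold (85.5 to 160), and was higher in each of the 9 steps. In LNCaP_C4-2B it started at 13.2 CPM and also rose at each of the 9 steps, but reached 348 CPM, 26.3-fold (19.0 to 37.5). The lines were thus close in CDK1 among the least proliferative cells and furthest apart among the most proliferative. CCNB1 spanned nearly the same fold range in both, from 20.2 to 715 CPM (35.4-fold, 27.9 to 45.5) and from 15.4 to 548 CPM (35.6-fold, 26.3 to 49.3). In LNCaP_C4-2B it stood at 209 CPM (195 to 225) in the sixth group, 188 CPM (175 to 203) in the seventh and 209.5 CPM in the eighth, a pause that the rising LNCaP_FGC values of 216, 296 and 358 CPM did not have. CCNB2 went from 2.60 to 142 CPM in LNCaP_FGC and from 6.80 to 196 CPM in LNCaP_C4-2B. CCNA2 rested on 4 UMIs in the lowest LNCaP_FGC group and 1 UMI in the lowest LNCaP_C4-2B group, and reached 167 and 127 CPM, a ratio of 144 (56.1 to 531) and of 354 (63.3 to 14017).

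The E-type cyclins passed through a maximum and came down again. CCNE2 peaked in the seventh group in both lines, at 159 and 33.9 CPM, and stood at 60.3 and 6.19 CPM in the most proliferative cells. CCNE1 peaked in the seventh group of LNCaP_FGC at 35.5 CPM. In LNCaP_C4-2B it was at 12.9 CPM (9.33 to 17.4) in the fourth group and 11.8 CPM (8.51 to 15.8) in the seventh. With 43 UMIs in each of these 2 groups, the place of its maximum there could not be told. It was lowest in the tenth group of both lines, at 10.6 CPM and at 2.23 CPM (9 UMIs). CDK2 was highest in the ninth group of both, at 52.0 and 42.0 CPM, from 6.07 and 5.73 CPM in the lowest. In the tenth group it was at 48.9 CPM (41.9 to 56.7) in LNCaP_FGC and 23.8 CPM (19.3 to 29.0) in LNCaP_C4-2B.

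CCND1 ran against the order in LNCaP_C4-2B. It started at 444 CPM in the least proliferative cells, was at 243 CPM in the ninth group and at 265 CPM in the tenth, 1.68-fold below the start, a ratio of 0.595 (0.548 to 0.647). It had 1241 UMIs in the lowest group and 1068 in the highest, with median totals of 14222 and 21638 UMIs per cell. The part of depth in this ratio was not tested. In LNCaP_FGC CCND1 went from 273 to 255 CPM, a ratio of 0.933 whose interval (0.851 to 1.02) included no difference, but between these it stood at 294 CPM (277 to 313) in the fourth group and 218 CPM (203 to 233) in the ninth, 1.35-fold apart. The lines were therefore 1.24-fold apart in CCND1 over all cells, with the gap widest among cells low in proliferation genes, and the highest groups stood at 255 and 265 CPM. CCND3 took the opposite course, from 9.24 to 16.9 CPM in LNCaP_FGC and from 5.37 to 17.8 CPM in LNCaP_C4-2B. CDK4 rose from 98.2 to 169 CPM and from 64.8 to 101 CPM, with a maximum of 136 CPM in the seventh group of LNCaP_C4-2B. No cell type that lacks these genes was in the files, so free RNA was not measured, and the levels in the lowest group include any of it.

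**Figure D3:**
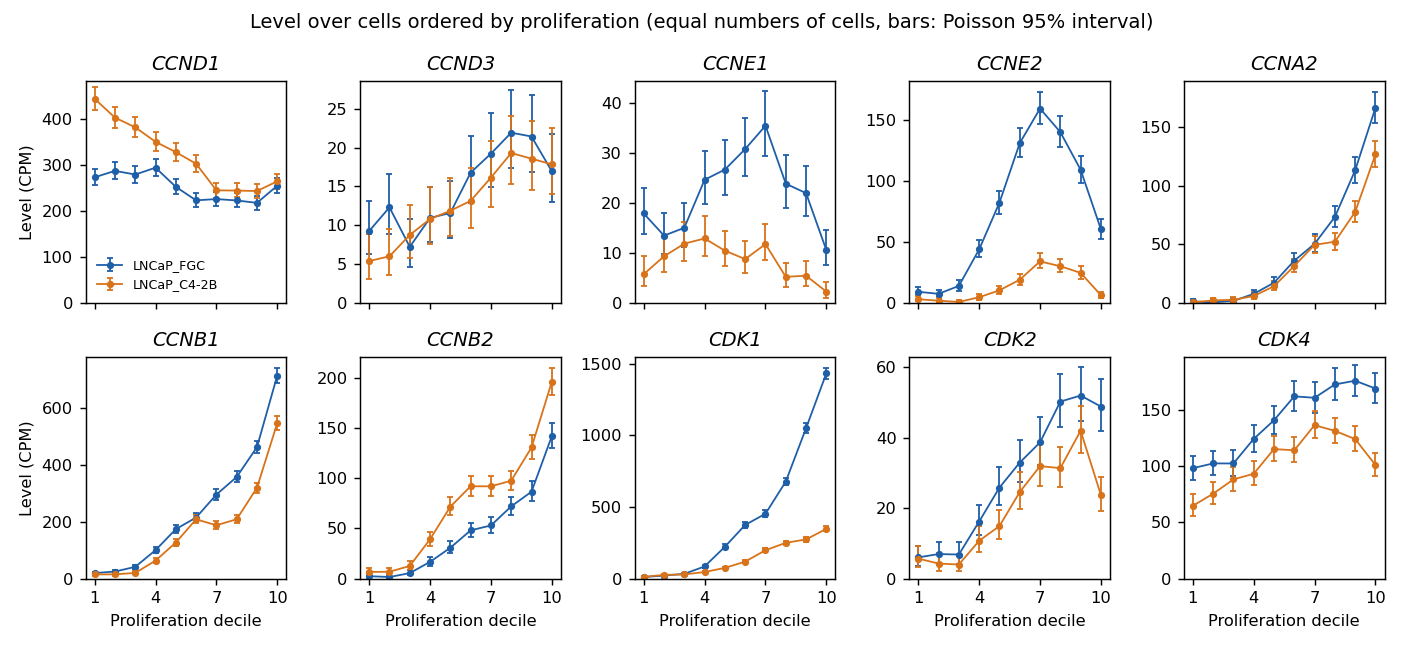
Level of each member in CPM over 10 groups of 185 cells ordered within each library from the lowest to the highest share of UMIs in S and G2M genes, with exact Poisson 95% intervals as bars. CDK1 climbs to 1433 CPM in LNCaP_FGC and 348 CPM in LNCaP_C4-2B, CCNE2 peaks in the seventh group of both, and CCND1 falls from 444 CPM in LNCaP_C4-2B.

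To separate early from late cells, each library was divided at its medians of the S gene share and of the G2M gene share into 4 groups. In LNCaP_FGC 760 cells were low in both, 165 high in S genes only, 760 high in both and 165 high in G2M genes only, and in LNCaP_C4-2B 772, 153, 772 and 153. These are ranges and not cell types, and 256 and 250 cells lay within 10% of a median. CCNE1 and CCNE2 were highest in cells high in S genes only, CCNE1 at 48.5 and 18.9 CPM and CCNE2 at 191 and 33.8 CPM. CCNA2, CDK1 and CDK2 were highest in cells high in both, CCNA2 at 94.7 and 72.5 CPM, CDK1 at 888 and 254 CPM and CDK2 at 47.0 and 32.6 CPM.

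In cells high in G2M genes only, CCNB1 and CCNB2 were close to or above their levels in cells high in both, while CDK1 was lower than there. CCNB1 was there at 424 CPM (402 to 448) in LNCaP_FGC and 393 CPM (369 to 417) in LNCaP_C4-2B, beside 421 and 297 CPM in cells high in both. CDK1 was there at 314 CPM (294 to 334) in LNCaP_FGC and 91.9 CPM (80.8 to 104) in LNCaP_C4-2B, above the 43.3 and 29.5 CPM of cells low in both and below the 888 and 254 CPM of cells high in both. CCNB2 was at 79.8 and 148 CPM in the same cells. CCND1 was highest in cells low in both, at 280.4 CPM in LNCaP_FGC and 391 CPM in LNCaP_C4-2B, and lowest in cells high in both, at 224 and 249 CPM.

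**Figure D4:**
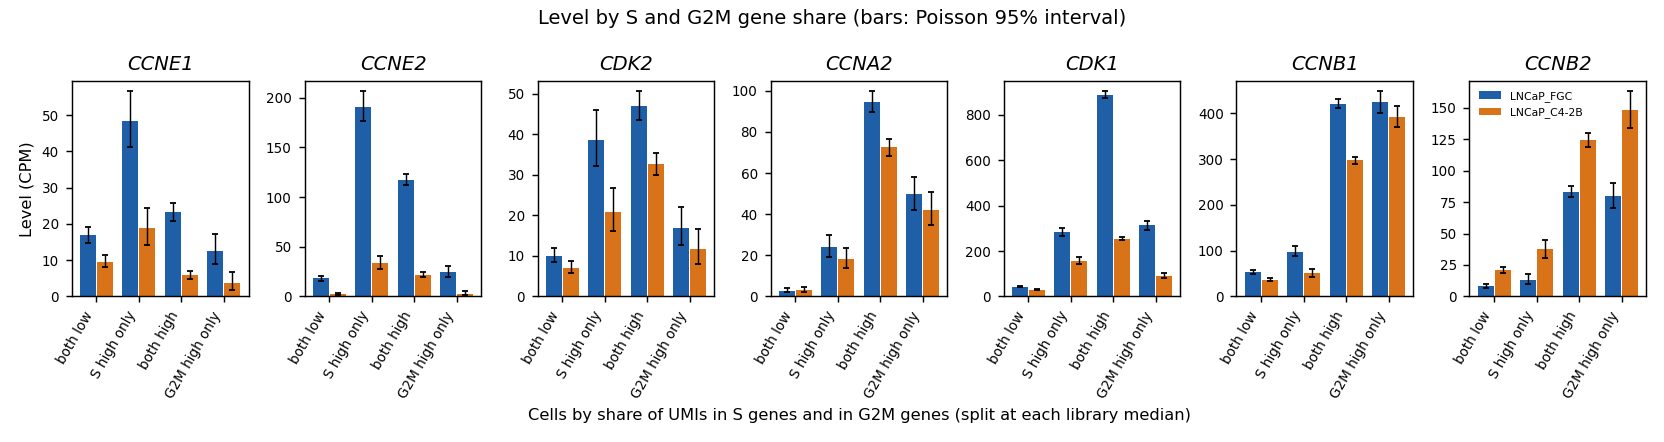
Level in CPM of the E-, A- and B-type cyclins, CDK2 and CDK1 in cells low in both S and G2M genes, high in S genes only, high in both, and high in G2M genes only, in each library, with exact Poisson 95% intervals as bars. CCNE1 and CCNE2 are highest in cells high in S genes only, CDK1 in cells high in both, and CCNB1 is at 424 and 393 CPM in cells high in G2M genes only.

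Single cells were compared after each cell had been thinned to 8988 UMIs, the smallest cell total, which kept all 1850 cells of each line. An E-type cyclin UMI was present in 43.7% of LNCaP_FGC cells (41.5 to 46.0) and in 15.0% of LNCaP_C4-2B cells (13.4 to 16.7). Before thinning, CCNE2 was seen in 47.0% and 17.2% and CCNE1 in 30.5% and 13.9% of cells. A B-type cyclin UMI was present in 64.2% (61.9 to 66.4) and 60.6% (58.3 to 62.8). E-type and B-type UMIs occurred together in 30.7% of LNCaP_FGC cells and 8.16% of LNCaP_C4-2B cells. Among G2M cells, 38.8% in LNCaP_FGC (230 of 593) and 8.39% in LNCaP_C4-2B (47 of 560) had an E-type UMI. The lower E-type share of all LNCaP_C4-2B cells enters both of these comparisons, and its part in them was not tested.

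CDK1 had no UMI more often beside a B-type cyclin in LNCaP_C4-2B. Cells with a B-type UMI and no CDK1 UMI made up 16.1% of LNCaP_FGC (14.5 to 17.9) and 29.2% of LNCaP_C4-2B (27.2 to 31.4). In the most proliferative group these were 4 of 185 LNCaP_FGC cells, 2.16% (0.592 to 5.44), and 36 of 185 LNCaP_C4-2B cells, 19.5% (14.0 to 25.9). CDK1 itself was detected in 61.7% and 46.3% of cells at this depth, so the level of CDK1 moved with these shares and its part in them was not tested. The share of cells with CDK1 and no B-type UMI was 13.7% and 14.9%, within each other's intervals. Among S cells it was 26.8% (22.8 to 31.1) in LNCaP_FGC and 38.5% (33.6 to 43.6) in LNCaP_C4-2B.

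Across the 1850 cells of a library, which share library and differ in depth, CCNB1 and CCNB2 had r = 0.63 in LNCaP_FGC and 0.68 in LNCaP_C4-2B, and CCNB1 and CDK1 had r = 0.39 and 0.09. The genes most like each member were chosen from 2402 genes that reached 50 CPM in both lines, ranked by the lower of their 2 values of r. For CCNE2 they were MCM4 (0.46), MCM3 (0.45) and BRCA1 (0.43). For CCNA2 they were TPX2 (0.63), CENPF (0.63) and MKI67 (0.60), and for CCNB1 HMMR (0.77), CENPF (0.76) and DLGAP5 (0.74), the last 3 also leading for CCNB2 at 0.60 to 0.65. CDK1 was most like TOP2A (0.63), HIST1H4C (0.61) and MKI67 (0.60). CDK2 came closest to HIST1H4C (0.35), ATAD2 (0.34) and RRM2 (0.33), and CDK4 to HIST1H4C (0.28), MCM7 (0.26) and TUBB (0.25). For CCND1, CCND3 and CCNE1 no gene reached 0.2 in both libraries.

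Other genes of the pathway were taken from a list of 47, of which 46 had at least 10 UMIs. Of these, 15 were above and 14 below the median gene by 1.5-fold, and 17 were within, again beside 26.0% and 26.4% of all genes, with a median log2 ratio of -0.37. Both CKS subunits, small proteins that dock on CDKs, were higher in LNCaP_C4-2B. CKS1B was at 70.6 CPM in LNCaP_FGC and 141 CPM in LNCaP_C4-2B (1.99-fold, 1.90 to 2.09), and CKS2 at 142 and 263 CPM (1.86-fold, 1.80 to 1.92). Of the 3 subunits of the CDK-activating kinase, CCNH and CDK7 were lower, CCNH at 67.7 and 27.1 CPM (2.50-fold lower, 2.31 to 2.69) and CDK7 at 24.9 and 9.90 CPM (2.52-fold lower, 2.22 to 2.86). The third subunit, MNAT1, named after its values were seen, was at 45.4 and 53.6 CPM (1.18-fold, 1.10 to 1.26), 0.72 over the median gene.

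Of the 8 CDK inhibitors, 5 were at least 1.5-fold above and 3 at least 1.5-fold below the median gene, beside 26.0% and 26.4% of all genes tested. CDKN1A, the p21 inhibitor induced by p53, was at 94.4 CPM in LNCaP_FGC and 18.9 CPM in LNCaP_C4-2B, 4.99-fold lower (4.59 to 5.43). CDKN1B, the p27 inhibitor of CDK2, was at 35.9 and 48.3 CPM (1.35-fold, 1.25 to 1.45). Of the INK4 inhibitors of CDK4, CDKN2A was at 18.5 and 33.3 CPM (1.79-fold, 1.63 to 1.98), CDKN2D at 15.2 and 28.9 CPM (1.91-fold, 1.72 to 2.12) and CDKN2C at 29.2 and 13.2 CPM (2.20-fold lower, 1.97 to 2.46). CDKN3, a phosphatase of CDKs that peaks late in the cycle, was at 126 and 161 CPM (1.27-fold, 1.22 to 1.32). RB1 was at 28.8 and 27.3 CPM, a ratio of 0.948 (0.867 to 1.04), RBL2 at 46.6 and 38.7 CPM, and RBL1, a pocket protein made in S phase, at 32.8 and 14.4 CPM (2.29-fold lower, 2.06 to 2.54). CCND2, the remaining D-type cyclin, had 1 UMI in each library. CDK6, the other kinase of the D-type cyclins and chosen after its values were seen, was at 2.25 CPM in LNCaP_FGC and 8.51 CPM in LNCaP_C4-2B, 3.78-fold higher (2.94 to 4.91) and far below CDK4 in both.

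ETV1, an ETS transcription factor, is expressed unevenly among LNCaP_FGC cells, and members were compared between cells without and with its UMIs. After thinning, 804 LNCaP_FGC cells had 0 ETV1 UMIs and 658 had at least 2. CCNB2 was at 58.1 CPM in cells with 0 and 35.3 CPM in cells with at least 2 (1.64-fold, 1.39 to 1.95), and CDK1 at 487 and 316 CPM (1.54-fold, 1.46 to 1.63). The other 8 members were within 1.5-fold, and 17.4% of 14358 genes were past it in either direction. CCNB1 was at 263 and 238 CPM, CCNA2 at 52.2 and 39.6 CPM, and CCND1 at 268 and 248 CPM. The same groups differed in phase, with 33.0% and 29.3% of cells in G2M and 42.0% and 48.6% in G1, and in the median share of S and G2M genes, 73.0 and 55.5 UMIs per 10000. The part of phase in the values of CCNB2 and CDK1 was not tested.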

How the data were processed

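Whole UMI counts of single cells were deposited. The authors made them with Cell Ranger 6.0 and Seurat 5.011 on GRCh38 per the submitters' processing notes. Cells were filtered by the authors on numbers of genes and reads, on hemoglobin, ribosomal and mitochondrial content and on a doublet score. They drew equal numbers of cells and thinned the counts to a common mean. No further doublet calling was done. The annotation release was not given in the sources used here. UMIs were summed per library, phase or group of cells and scaled to CPM (Python 3.11.15, SciPy 1.17.1). Phases came from CellCycleScoring in Seurat 5.3.0 (R 4.3.3) without the members and the 47 pathway genes. TMM factors came from edgeR 4.0.16. Correlations used log2(1 + UMIs per 10000). Gene positions are from GENCODE on GRCh38. The ratio and its interval were tested on counts simulated with Poisson error only, so variation between cells or cultures was not covered. All 10 members are named. Pathway genes were named when they had at least 20 CPM in a library and were among the 3 highest or 3 lowest ratios, or were inhibitors or RB genes. A like gene was named at r of at least 0.2. The members and lists were chosen with earlier results of these data known.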

Additional observations from a re-analysis of the deposited data

How the results depend on the processing

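With 1 library per line, no replicate could be left out, and no paired analysis was possible because each line has only 1 library. The 2 members above and 3 below the median gene were the same with equal phase shares and with cells thinned to the smallest total. They were also the same with no filter on UMIs, which moves only the median gene. Totals without ribosomal protein and mitochondrial genes, median-of-ratios factors and TMM factors could not change them. These scales move the ratio of every gene by the same factor, so the distance from the median gene stays fixed. The sign of 4 log2 ratios turned with the scale. With median-of-ratios factors CCNA2 was at 0.226, CCNB1 at 0.0889 and CDK4 at 0.0688, and with TMM factors at 0.206, 0.0692 and 0.0490. CCND3, whose interval had included equal CPM, was at 0.321 and 0.301. The median gene was at -0.01 and -0.03 on these scales. The number of members higher in G2M was 4 in each line under each of the 3 alternatives. The number at least 2-fold higher in the most proliferative cells ran from 6 to 7 in LNCaP_FGC and from 5 to 7 in LNCaP_C4-2B, where CCNE2 and CCND3 crossed the limit. Of the single ratios of members under these settings, 29 moved by less than counting error and 25 by more. The other 6, given above for CCNA2, CCNB1 and CDK4, changed sign. The 29 include those with no filter on UMIs, which cannot change a member's own ratio. The 25 include CCND3 with median-of-ratios and TMM factors, where its sign also changed. Counts of 1 to 9 UMIs, as for CCNA2 in the least proliferative cells, limit the folds of the sparsest members.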
